A study of Mus musculus with 6 samples.

Results

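Tracheal mesenchyme of the mouse was examined for 40 genes of cartilage matrix and of the chondrocytes that make it, in 3 control samples and in 3 samples taken 48 h post injury (hpi). The list was given by gene symbol and covers cartilage collagens, other matrix proteins, transcription factors, signals and receptors, and enzymes of sulfation. On the array 38 of the 40 were measured, by 74 of 45037 probe sets, among 18193 genes in all, and the other 2 are not analysed here. The mice were adult C57Bl/6 males. The injured animals had inhaled 500 ppm sulfur dioxide (SO2) for 4 h, after which the luminal cells of the airway lining die and slough off, and the controls are labelled normal. Each sample pooled tracheas of 4 mice, from which the epithelium was peeled after 23 min in dispase, and the remaining mesenchyme was frozen and ground whole. As the samples are pools, each p-value measures the spread between pools of mice and not between single mice.

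The trachea is held open by incomplete rings of hyaline cartilage, which lie in the mesenchyme beneath the airway epithelium. Chondrocytes embed themselves in fibrils of collagens II, IX and XI and in a gel of aggrecan, whose chondroitin sulfate chains draw in water, and the factor Sox9 with its partners Sox5 and Sox6 drives many of these genes. Hypertrophic chondrocytes, the last stage before cartilage is replaced by bone in a growth plate, add collagen X.

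The promoters of genes that fell show what sequence lies before these start sites. RefSeq windows of assembly GRCm38.p6 that reach from 250 bases before to 50 bases after a start were available for 29 of the 38 genes, with 42 windows in all. The windows were searched for ACAAAG and ACAATG, cores of sites that Sox proteins bind, on both strands, and for TATAAA on the gene's strand. The Sox protein cores share their first 4 letters, and none of the 3 motifs contains another. The stretches printed here end at the base before the start, run 5′ to 3′ on the gene's strand, and belong to the genes called lower that had a single window. Capitals mark a motif.
Col10a1, chr10:34389731-34389980, plus strand: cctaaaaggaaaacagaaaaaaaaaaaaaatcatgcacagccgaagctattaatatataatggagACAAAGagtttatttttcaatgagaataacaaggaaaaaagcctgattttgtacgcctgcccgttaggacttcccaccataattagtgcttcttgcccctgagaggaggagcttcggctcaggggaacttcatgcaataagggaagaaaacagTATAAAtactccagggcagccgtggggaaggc
Chad, chr11:94564947-94565046, plus strand: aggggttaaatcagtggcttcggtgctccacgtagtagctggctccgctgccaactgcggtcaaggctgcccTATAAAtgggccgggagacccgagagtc
Hapln1, chr13:89540536-89540635, plus strand: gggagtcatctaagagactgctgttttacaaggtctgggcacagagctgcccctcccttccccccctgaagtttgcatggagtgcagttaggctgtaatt
Fmod, chr1:134037154-134037253, plus strand: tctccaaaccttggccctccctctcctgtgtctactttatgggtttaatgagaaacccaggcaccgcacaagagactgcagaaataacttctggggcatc
Cilp2, chr8:69887393-69887492, minus strand: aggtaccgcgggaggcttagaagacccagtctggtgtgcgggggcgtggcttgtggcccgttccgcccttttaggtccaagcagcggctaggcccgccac
In the Col10a1 stretch ACAAAG begins at base -185 from the start and TATAAA at base -32. In that of Chad TATAAA begins at base -28. The stretches of Hapln1, Fmod and Cilp2 hold none of the 3 motifs. Over the cartilage windows ACAAAG was present in 9 of 42, or 21.4%, against 18.7% of all 32851 promoter windows, and 5 of these 9 belong to Sox6, so that 5 of the 29 genes had it. ACAATG was present in 14.3% against 12.6%, and TATAAA in 9.52% against 8.32%. These shares describe letters in a window and say nothing of binding.

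Expression is given as the deposited robust multi-array average (RMA) value on the log2 scale, where a difference of 1 is a 2-fold change. Where a gene had several probe sets, the one whose mean over the 6 arrays was highest was read, and levels are compared only within a probe set. Differences were tested with limma, and p-values were adjusted by Benjamini-Hochberg across the 45037 probe sets and read at 0.05. At an unadjusted p under 0.05, 1690 of the 18193 genes, or 9.29%, were lower in this fit and 2650 were higher. An equal-variance F test had 3860 genes at that level, in either direction. The samples of both groups carry the numbers 1, 2 and 3, and samples of the same number deviated from their group means together. A fit with the number as a block, which compares each injured sample with the control of its number, is therefore given where it changed a call. A probe set was called dim where a group mean lay under 4.96, the bound that 90% of olfactory receptor probe sets did not pass. For the further probe sets of a gene, and for the filter on dim probe sets, the mean over the 6 arrays was used instead.

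As for the samples as a whole, arrays of a group correlated at 0.987 to 0.994. The 15 chondrocyte markers used as a check of the tissue, all of which are also on the list of 40, were above the dim bound. Other cell types were present as well. Of 8 myeloid markers 7 rose, beside 4.97% of all genes. Their mean level was 8.32 to 8.65 in controls and 9.79 to 10.04 at 48 hpi. Of 7 endothelial markers 3 rose, or 4 with the block, beside 4.97% and 8.77% of all genes. Their mean level was 7.10 to 7.36 in controls and 7.48 to 7.69 at 48 hpi. Of 11 airway epithelial markers none passed limma's threshold, 2 were lower at an unadjusted p under 0.05 and 0 by an equal-variance F test, 2 were dim, and the mean level was 7.81 to 8.65 against 7.25 to 8.57. With the block 2 of them fell, beside 4.64% of all genes. These were the secretory cell genes Scgb1a1 at -2.57 ± 0.82 (adjusted p = 0.146, and 0.0146 with the block) and Scgb3a2 at -2.07 ± 0.82 (adjusted p = 0.229, and 0.0339 with the block). Of the chondrocyte markers 3 fell, or 10 with the block, beside 1.24% and 4.64% of all genes. In 15 of 15 the log2 fold change was below 0. The mean level of the chondrocyte markers was 11.38 to 11.70 in controls and 10.85 to 11.20 at 48 hpi. The part that a change in cell makeup has in the results below was not tested, and in whole tissue fewer chondrocytes and less RNA per chondrocyte cannot be told apart.

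The cartilage list was lower at 48 hpi, with a median log2 fold change below 0 in each of its 5 roles. In the limma fit 8 of the 38 measured genes fell, or 21.1%, beside 1.24% of all genes, and 1 rose, or 2.63%, beside 4.97% of all genes. The genes that fell were Col10a1, Hapln1, Chad, Snorc, Fmod, Cilp2, Sox6 and Fgfr3, and the gene that rose was Prg4. Over the 38 genes the median log2 fold change was -0.49, against -0.01 over all genes, and 34 of 38 lay below 0, against 53.2% of all genes. With the number as a block 19 fell, or 50.0%, beside 4.64% of all genes, and Prg4 and Cilp rose, beside 8.77%. All 9 genes called without the block were also called with it. In 18 genes, or 47.4%, every injured sample was below every control, beside 13.1% of all genes, and in 2 every injured sample was above, beside 17.2%.

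**Figure D1:**
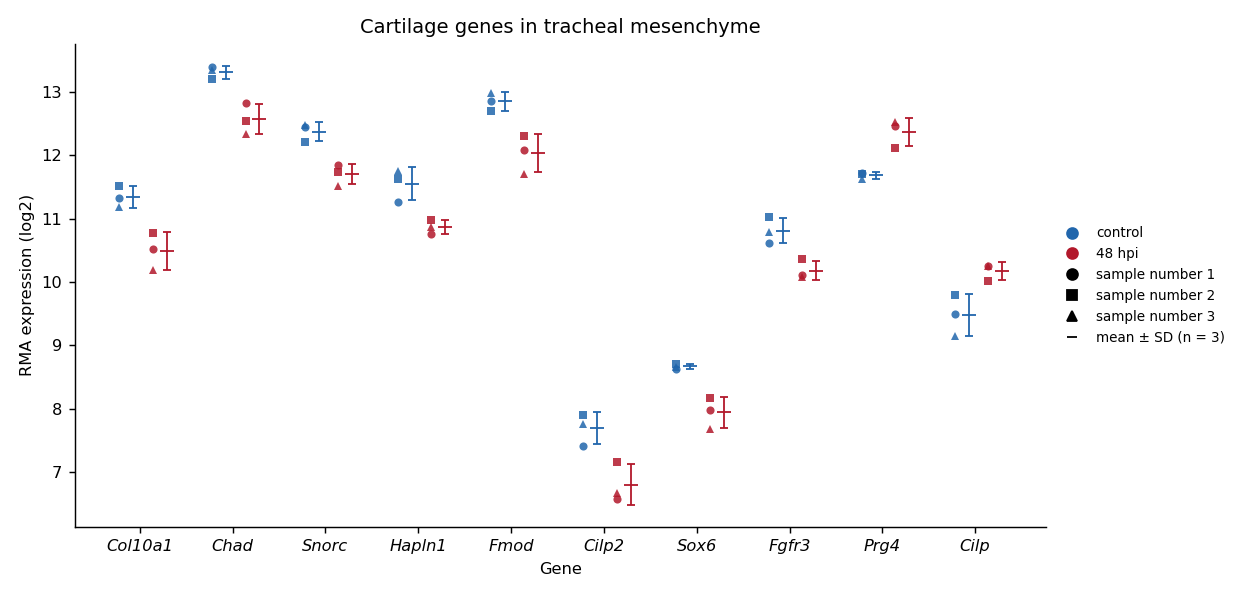
RMA expression on the log2 scale of the 9 cartilage genes past the limma threshold and of Cilp, per sample, with the group mean and SD (n = 3); marker shape gives the sample number. In each of the 10 genes the control and 48 hpi values do not overlap, with Prg4 and Cilp higher at 48 hpi and the other 8 lower.

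The falls were moderate in size. The 8 called genes were at 54.0% to 64.8% of their control level at 48 hpi. The lowest log2 fold change on the list was -0.89, in Cilp2, and the highest 0.69, in Prg4 and Cilp.

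**Figure D2:**
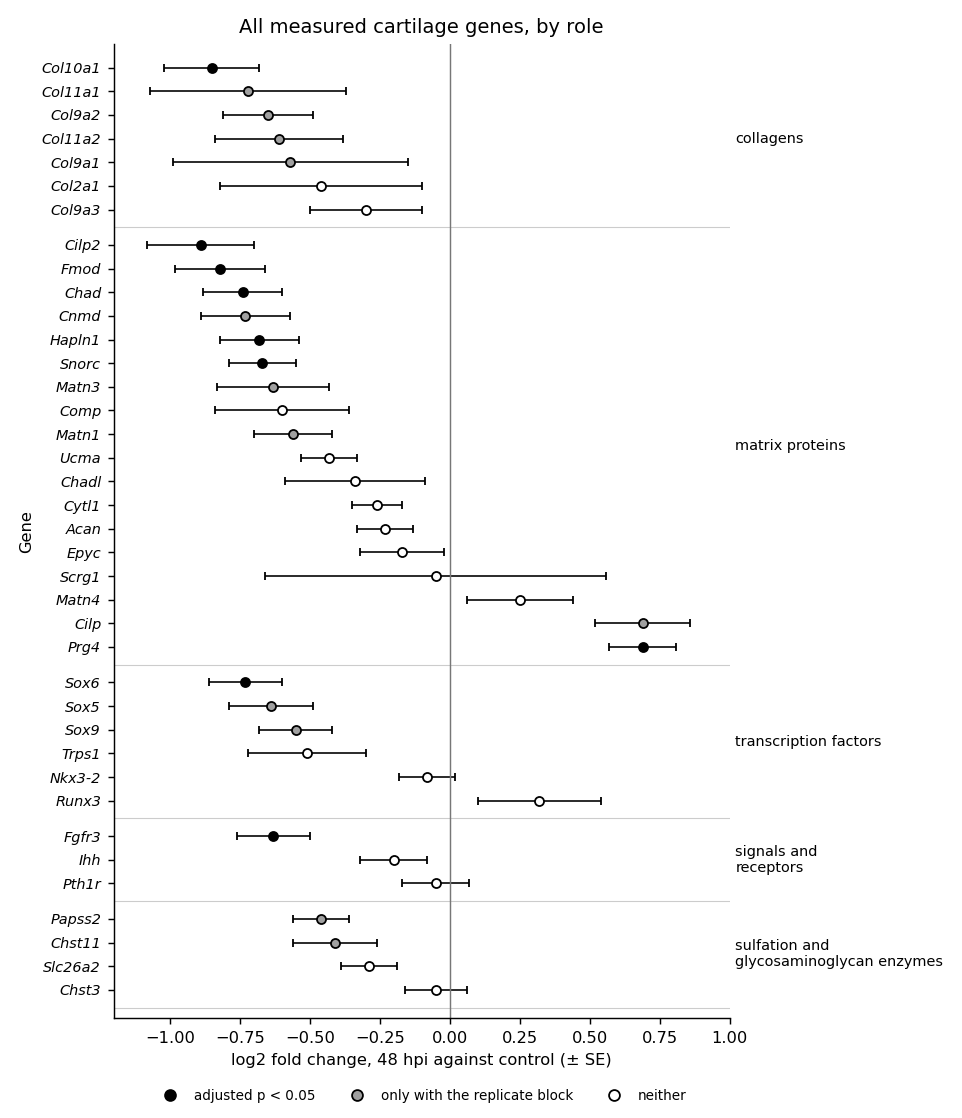
Log2 fold change (48 hpi against control) with its SE for the 38 measured cartilage genes, grouped by role; black points passed the threshold in limma, grey points only with the replicate block and white points in neither. All 7 collagens lie left of 0, and the 4 genes right of 0 are Matn4, Runx3, Cilp and Prg4.

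All 7 collagens had a log2 fold change below 0, the median being -0.61, and 1 of them fell past the threshold, beside 1.24% of all genes. Col10a1, the collagen of hypertrophic chondrocytes, was at 11.33, 11.52 and 11.18 in controls 1, 2 and 3 and at 10.52, 10.78 and 10.19 in injured samples 1, 2 and 3. All 3 injured samples were thus below all controls, by similar amounts in each number. Col10a1 fell by 0.85 ± 0.17 (SE) on the log2 scale, to 55.4% of the control level (adjusted p = 0.0368).

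Collagen II, the main fibril collagen of cartilage, is encoded by Col2a1. Its values were 11.88, 12.76 and 12.86 in controls and 11.49, 12.71 and 11.94 at 48 hpi. The groups overlapped, the injured sample numbered 2 lay almost level with its control, and both samples numbered 1 were the lowest of their group. The log2 fold change was -0.46 ± 0.36 (adjusted p = 0.545, and 0.121 with the block). The fold changes of Col10a1 and Col2a1 differed by -0.40, with overlap of the groups (exact permutation test, two-sided, p = 0.5).

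Collagens IX and XI coat and seed the collagen II fibril. Col9a1 was at 11.11, 12.35 and 12.27 in controls and at 10.61, 11.90 and 11.53 at 48 hpi, a log2 fold change of -0.57 ± 0.42. The groups overlapped because the samples numbered 1 were low in both, yet every injured sample was below its own control by 0.45 to 0.75, and with the block the gene fell (adjusted p = 0.0163, against 0.52 without). Its partner chain Col9a2 was at 9.51, 9.66 and 9.99 in controls and at 8.91, 9.29 and 9.02 at 48 hpi, with no overlap. The log2 fold change of Col9a2 was -0.65 ± 0.16, with an adjusted p of 0.0699, and of 0.0245 with the block. Col9a3, the remaining chain, had a log2 fold change of -0.30 ± 0.20 and passed in neither fit.

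Col11a1 was at 10.98, 11.94 and 11.93 in controls and at 10.37, 11.52 and 10.81 at 48 hpi. Only the control numbered 1 reached into the injured range. Its log2 fold change was -0.72 ± 0.35 (adjusted p = 0.325, and 0.0239 with the block). Col11a2, whose chain assembles with that of Col11a1, was at 9.33, 9.87 and 9.89 in controls and at 8.80, 9.55 and 8.89 at 48 hpi. The injured sample numbered 2 stood above control 1, so the groups overlapped here too. Its log2 fold change was -0.61 ± 0.23 (adjusted p = 0.212, and 0.0347 with the block). With the block 5 of the 7 collagens fell, beside 4.64% of all genes, the exceptions being Col2a1 and Col9a3.

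Of the 18 other matrix proteins 5 fell and 1 rose, beside 1.24% and 4.97% of all genes, the median log2 fold change being -0.50. With the block 8 fell and 2 rose, beside 4.64% and 8.77% of all genes. Hapln1 passed and Acan did not, and the difference between them was not tested. Acan, which encodes aggrecan, was at 13.11, 12.92 and 13.17 in controls and at 12.94, 12.78 and 12.81 at 48 hpi, a log2 fold change of -0.23 ± 0.10 (adjusted p = 0.276). Injured sample 1 stood above control 2, so the groups overlapped. Hapln1, the link protein that ties aggrecan to hyaluronan, was at 11.26, 11.62 and 11.75 in controls and at 10.76, 10.98 and 10.87 at 48 hpi. All injured values were below all control values, and Hapln1 fell by 0.68 ± 0.14, to 62.5% of control (adjusted p = 0.0449). All 4 of its probe sets fell.

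Chad and Snorc, proteins at the chondrocyte surface, fell. Chad, chondroadherin, which links chondrocytes to collagen, was at 13.40, 13.20 and 13.34 in controls and at 12.83, 12.54 and 12.34 at 48 hpi. The injured range lay wholly below the control range, and Chad fell by 0.74 ± 0.14, to 59.7% (adjusted p = 0.0301). Its relative Chadl had a log2 fold change of -0.34 ± 0.25 and passed in neither fit. Snorc, a small transmembrane proteoglycan of chondrocytes, was at 12.44, 12.21 and 12.47 in controls and at 11.84, 11.73 and 11.52 at 48 hpi. Again no value overlapped, and Snorc fell by 0.67 ± 0.12, to 62.7% (adjusted p = 0.0274).

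Matrilins and Comp are adaptor proteins that join matrix fibrils, and none of them passed in limma without the block, although Matn1, Matn3 and Comp were lower at an unadjusted p under 0.05. Matn1, matrilin-1, was at 11.05, 10.58 and 10.92 in controls and at 10.42, 10.30 and 10.14 at 48 hpi, with no overlap. Its log2 fold change was -0.56 ± 0.14 (adjusted p = 0.0791, and 0.0269 with the block). Matn3 was at 9.46, 9.52 and 9.07 in controls and at 8.78, 9.05 and 8.33 at 48 hpi. The groups just missed each other, at 9.07 and 9.05, and the log2 fold change was -0.63 ± 0.20 (adjusted p = 0.149, and 0.011 with the block). Comp, which binds collagen and matrilins, was at 12.17, 11.49 and 11.87 in controls and at 11.61, 11.30 and 10.81 at 48 hpi. Here injured sample 1 exceeded control 2, and Comp passed in neither fit, at -0.60 ± 0.24 (adjusted p = 0.232, and 0.0596 with the block). Matn4 was at 0.25 ± 0.19 above control and passed in neither fit.

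Small leucine-rich proteoglycans bind to collagen fibrils and limit their width. Fmod, fibromodulin, was at 12.86, 12.70 and 12.99 in controls and at 12.08, 12.31 and 11.71 at 48 hpi. All injured samples were below all controls, although the drop in the samples numbered 2 was 0.39 and that in the samples numbered 3 was 1.29. Fmod fell by 0.82 ± 0.16, to 56.6% (adjusted p = 0.0394), and 3 of its 6 probe sets passed. Epyc, epiphycan, of the same family, had a log2 fold change of -0.17 ± 0.15 (adjusted p = 0.572). The difference between both fold changes was -0.65. Within sample numbers 1, 2 and 3 it was -0.73, -0.05 and -1.16, so it was almost absent in number 2. The 3 injured samples did not overlap the controls in the difference Fmod minus Epyc (exact permutation test, two-sided, p = 0.1, the smallest that 3 against 3 allows).

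Prg4 and Cilp were higher at 48 hpi. Prg4, lubricin, the lubricant of joint surfaces, was at 11.72, 11.70 and 11.62 in controls and at 12.46, 12.11 and 12.53 at 48 hpi. The controls lay within 0.10 of each other and all injured samples lay above them. Prg4 rose by 0.69 ± 0.12, to 161% of control (adjusted p = 0.0288). Cilp, cartilage intermediate layer protein, was at 9.50, 9.80 and 9.14 in controls and at 10.25, 10.01 and 10.25 at 48 hpi. It too lay higher in every injured sample, by 0.69 ± 0.17, with an adjusted p of 0.0764, and it rose with the block (adjusted p = 0.043).

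Cilp2, the paralog of Cilp, moved the opposite way. It was at 7.41, 7.90 and 7.76 in controls and at 6.58, 7.16 and 6.66 at 48 hpi. No injured sample reached the lowest control, and Cilp2 fell by 0.89 ± 0.19, to 54.0% (adjusted p = 0.0484). The fold changes of Cilp and Cilp2 differed by 1.58, by 1.58, 0.95 and 2.21 within sample numbers 1, 2 and 3. Every injured sample was above the controls in Cilp and below them in Cilp2, so the groups could not overlap in this difference. The exact permutation test (two-sided) could thus only give its smallest value, p = 0.1, and adds no support. The fold changes of Prg4 and Acan differed by 0.92, without overlap (exact permutation test, two-sided, p = 0.1). In all 5 such pairs were compared, with no rule set for picking them, and none could reach 0.05 with 3 samples a group.

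Cnmd, listed under its older symbol Lect1, encodes chondromodulin, which keeps vessels out of cartilage. It was at 12.56, 12.58 and 12.47 in controls and at 12.00, 11.98 and 11.42 at 48 hpi. The groups did not overlap, and its log2 fold change of -0.73 ± 0.16 lay just outside the threshold (adjusted p = 0.0536, and 0.0136 with the block). Ucma, a secreted protein of chondrocytes, was lower in every injured sample, at -0.43 ± 0.10 (adjusted p = 0.0698, and 0.0539 with the block). Its other probe set, also at -0.43, fell with the block (adjusted p = 0.0411). Cytl1, a secreted protein also made by chondrocytes, was lower in every injured sample too, at -0.26 ± 0.09, and passed in neither fit. Scrg1 had a log2 fold change of -0.05 ± 0.61, and its large error reflects control values from 7.12 to 9.18.

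Among the 6 transcription factors measured, 1 fell without the block and 3 with it, beside 1.24% and 4.64% of all genes. The median log2 fold change of the 6 was -0.53. The 3 that fell with the block were the Sox trio. Sox9, the factor without which no cartilage forms, was at 9.87, 9.67 and 9.72 in controls and at 9.27, 9.39 and 8.95 at 48 hpi. All injured samples were below all controls, at a log2 fold change of -0.55 ± 0.13 (adjusted p = 0.0689, and 0.0292 with the block). Sox5, one of its partners, was at 7.78, 7.52 and 7.65 in controls and at 7.17, 7.15 and 6.69 at 48 hpi. It did not overlap either, at -0.64 ± 0.15 (adjusted p = 0.064, and 0.0238 with the block), while another of its 7 probe sets fell in the fit without the block.

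Sox6, the other partner, was at 8.63, 8.71 and 8.66 in controls and at 7.98, 8.16 and 7.67 at 48 hpi. Its controls were the tightest of the trio, and all injured samples lay clearly under them. Sox6 fell by 0.73 ± 0.13, to 60.3% (adjusted p = 0.0291), in 3 of its 4 probe sets. The fold changes of Sox6 and Sox9 differed by -0.18, with overlap between the groups (exact permutation test, two-sided, p = 0.2, where the smallest possible is 0.1). Trps1, a repressor of chondrocyte genes, had a log2 fold change of -0.51 ± 0.21 and passed in neither fit. Of its further probe sets, those at -0.34 and -0.37 fell with the block (adjusted p = 0.0498 and 0.0364). Runx3, a factor of chondrocyte maturation, was at 0.32 ± 0.22 above control and passed in neither, and its other probe set that was not dim gave -0.02. Nkx3-2 was dim in both groups.

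The signals on the list were a hedgehog ligand and a pair of receptors. Ihh, the ligand that prehypertrophic chondrocytes secrete, was dim, at 4.82, 4.61 and 4.52 in controls and 4.29, 4.45 and 4.59 at 48 hpi. Its fold change is poorly fixed at that level (-0.20 ± 0.12, adjusted p = 0.41). Pth1r, the receptor for the parathyroid hormone related peptide that acts in a loop with Ihh, was at 6.00, 6.39 and 6.25 in controls and 6.06, 6.28 and 6.14 at 48 hpi. The groups overlapped, at a log2 fold change of -0.05 ± 0.12 (adjusted p = 0.863). Fgfr3, a receptor that restrains chondrocyte division in the growth plate, was at 10.62, 11.02 and 10.79 in controls and at 10.11, 10.36 and 10.08 at 48 hpi. No injured sample reached a control, and Fgfr3 fell by 0.63 ± 0.13, to 64.8% (adjusted p = 0.0471). Its other probe set did not pass, at -0.27 ± 0.15, and neither did the mean of both, at -0.45 ± 0.12 (adjusted p = 0.0759), nor the probe set used once arrays were centred on their median.

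The enzymes that supply and place sulfate on aggrecan's chains did not pass limma's threshold. Of 4 measured none was called, 3 were lower at an unadjusted p under 0.05, and 2 by the equal-variance F test. With the block 2 fell, beside 4.64% of all genes. Papss2, which makes the sulfate donor, was at 11.89, 11.92 and 12.08 in controls and at 11.37, 11.65 and 11.49 at 48 hpi. All injured samples lay below the controls, at -0.46 ± 0.10 (adjusted p = 0.0581, and 0.0304 with the block). Chst11, a chondroitin sulfotransferase, was at 10.79, 10.33 and 10.62 in controls and at 10.36, 10.00 and 10.15 at 48 hpi. Injured sample 1 stood just above control 2, and the log2 fold change was -0.41 ± 0.15 (adjusted p = 0.191, and 0.0302 with the block). The sulfate transporter Slc26a2 was lower in every injured sample at -0.29 ± 0.10 and passed in neither fit. A further probe set of Slc26a2, at -0.44, fell with the block (adjusted p = 0.0351). The sulfotransferase Chst3 was dim.

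Where a gene had several probe sets, these mostly moved alike. Of the 38 genes 16 had more than 1, and of their 30 further probe sets that were not dim 29 had a fold change of the same sign as the one used, the exception being that of Runx3. Over all 74 probe sets 16 fell and 1 rose, beside 0.846% and 3.49% of all probe sets.

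Within sample numbers, 30 of the 38 genes, or 78.9%, were lower at 48 hpi in all 3 pairs, beside 27.3% of all genes. In 4 genes, Matn4, Runx3, Prg4 and Cilp, the injured sample was higher in all 3 pairs, beside 26.6% of all genes, and 4 were mixed. The size of the drop differed between the pairs. Its median over the 38 genes was -0.50 in number 1, -0.29 in number 2 and -0.73 in number 3, where all genes had medians of -0.01, -0.01 and 0.01. For the collagens the medians were -0.53, -0.37 and -0.98, for the other matrix proteins -0.49, -0.32 and -0.70, for the transcription factors -0.47, -0.23 and -0.87, and for the sulfation enzymes -0.33, -0.27 and -0.41. In these 4 roles the drop was deepest in the pair numbered 3 and shallowest in the pair numbered 2. The 3 signals and receptors went otherwise, at -0.50, -0.16 and -0.11, deepest in number 1 and shallowest in number 3.

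**Figure D3:**
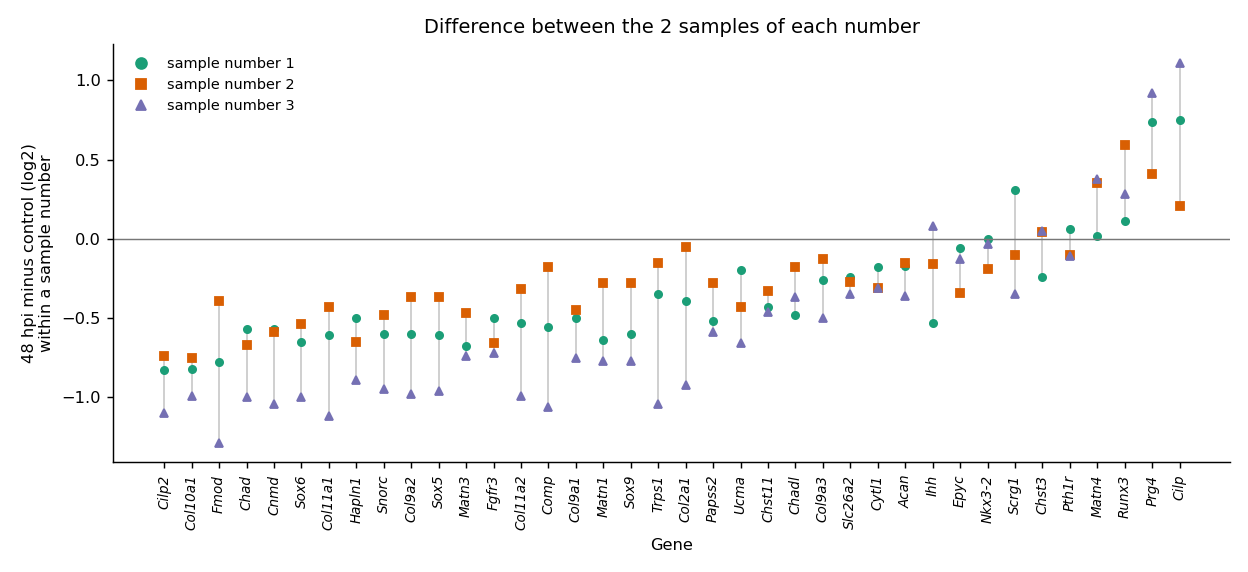
Difference on the log2 scale between the 48 hpi and the control sample of the same number, for each of the 38 measured cartilage genes in order of their fold change, with 1 point per sample number. The points of number 3 reach -1.29 in Fmod and 1.11 in Cilp, and all 3 points lie below 0 in 30 genes.

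The collagens also differed between sample numbers within a group. In 13 of the 38 genes, or 34.2%, both samples numbered 1 were the lowest of their group, beside 12.3% of all genes. These included Scrg1, Col9a1, Col2a1, Col11a1, Col9a3, Col11a2 and Col9a2, that is 6 of the 7 collagens. The mean of the samples numbered 1 was below that of the other numbers in each of these, the difference being -1.70 in Scrg1, -1.16 in Col9a1, -0.88 in Col2a1 and -0.87 in Col11a1 on the log2 scale. Col10a1 did not share this, at 0.01. In 9 genes, or 23.7%, both samples numbered 1 were the highest, beside 24.2% of all genes, with Chadl at 0.64, Comp at 0.52 and Runx3 at 0.48 above the other numbers. The labels give the number as that of the biological replicate, and whether it marks a shared day or batch is not given in the sources used here.

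**Figure D4:**
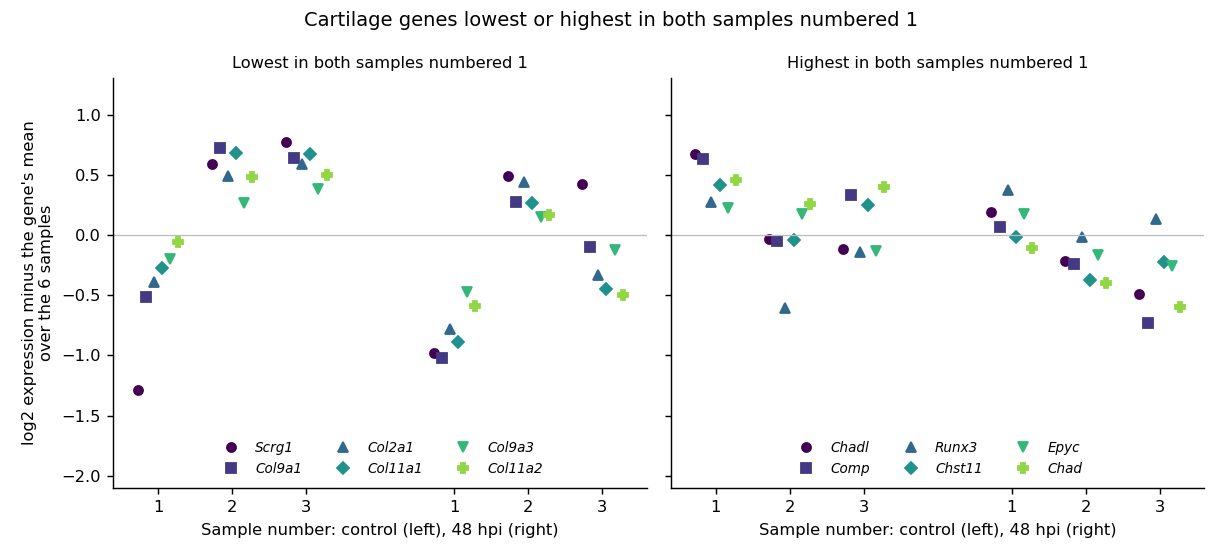
Expression on the log2 scale minus the gene's mean over the 6 samples, by sample number in the control and 48 hpi groups, for the 6 genes with the largest difference among those lowest (left) and those highest (right) in both samples numbered 1. Scrg1 lies at or below -0.98 in both samples numbered 1 and above 0.4 in the other 4.

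The calls rested on all 6 arrays. Of the 9 genes called, 3, 1 and 0 were still called without control 1, 2 or 3, and 2, 5 and 0 without injured sample 1, 2 or 3. None of the 9 was called in more than 2 of these 6 fits, in which their adjusted p ranged from 0.014 to 0.184. Over all genes the count that fell dropped from 226 to between 17 and 98 in the same fits. The direction of each of the 9 was kept in all of them. Without both samples numbered 1, 2 of the 9 were called and 2 cartilage genes fell, beside 0.418% of all genes.

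Related genes outside the list moved in part. Of 29 further signals and factors of chondrocytes 4 fell in limma, beside 1.24% of all genes, and none rose, beside 4.97%. At an unadjusted p under 0.05, 13 were lower and 0 higher, beside 1690 and 2650 of all 18193 genes. The median log2 fold change was -0.28, and with the block 10 fell, beside 4.64% of all genes. Fgfr2, a receptor related to Fgfr3, fell by 0.54 ± 0.08 (adjusted p = 0.0143). Ptch1, the hedgehog receptor that is itself a hedgehog target, fell by 0.52 ± 0.09 (adjusted p = 0.0285). The other 2 were Hhip, a hedgehog binding protein, and Foxa3, which the naming rule did not take and which are named after their values were seen. Hhip is also on the smooth muscle marker list below, and which cells gave these 4 falls was not tested.

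Chondroitin sulfate and linker enzymes lay on both sides of 0. Of 24 measured 0 passed in limma, and the median log2 fold change was -0.07. At an unadjusted p under 0.05, 3 were lower and 4 higher, beside 1690 and 2650 of all 18193 genes. In the equal-variance F test 6 passed that level, beside 3860 of all genes. In 6 every injured sample was below every control, and in 5 every one was above, beside 13.1% and 17.2% of all genes. With the block 1 fell, beside 4.64% of all genes. This was Fam20b, a kinase that acts on the linker sugars, at -0.48 ± 0.13 without the block (adjusted p = 0.0958, and 0.0326 with it). Fam20b is named after its value was seen. Ugdh, which makes the sugar precursor of the chains, had a log2 fold change of -0.12 ± 0.09 (adjusted p = 0.543). Bpnt2, a phosphatase that clears the byproduct of sulfation, was at -0.38 ± 0.09 (adjusted p = 0.0767).

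Among 16 enzymes that degrade cartilage matrix and their inhibitors, 3 rose and none fell in limma, beside 4.97% and 1.24% of all genes. At an unadjusted p under 0.05, 4 were lower and 5 higher, beside 1690 and 2650 of all 18193 genes, and the median was 0.09. With the block 5 rose and 2 fell, beside 8.77% and 4.64% of all genes. Timp1, an inhibitor of metalloproteinases, rose by 2.47 ± 0.30, to 553% of control (adjusted p = 0.00703). Mmp3, stromelysin, rose by 1.28 ± 0.20, to 244% (adjusted p = 0.0170). The other was Adamts4, an enzyme that cuts aggrecan, at 1.07 ± 0.21 (adjusted p = 0.0405), named after its value was seen. These enzymes and inhibitors are also made by cells other than chondrocytes.

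Of 11 bone and hypertrophic zone genes 0 passed in limma. At an unadjusted p under 0.05, 3 were lower and 1 higher, beside 1690 and 2650 of all 18193 genes. In the F test 4 passed that level, beside 3860 of all genes. With the block 3 fell and 1 rose, beside 4.64% and 8.77% of all genes, and 5 of the 11 were dim. Ank, a transporter of pyrophosphate, had a log2 fold change of -0.50 ± 0.11 (adjusted p = 0.0531, and 0.0229 with the block). Ibsp, bone sialoprotein, was at -0.94 ± 0.50 (adjusted p = 0.374, and 0.00301 with the block).

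**Figure D5:**
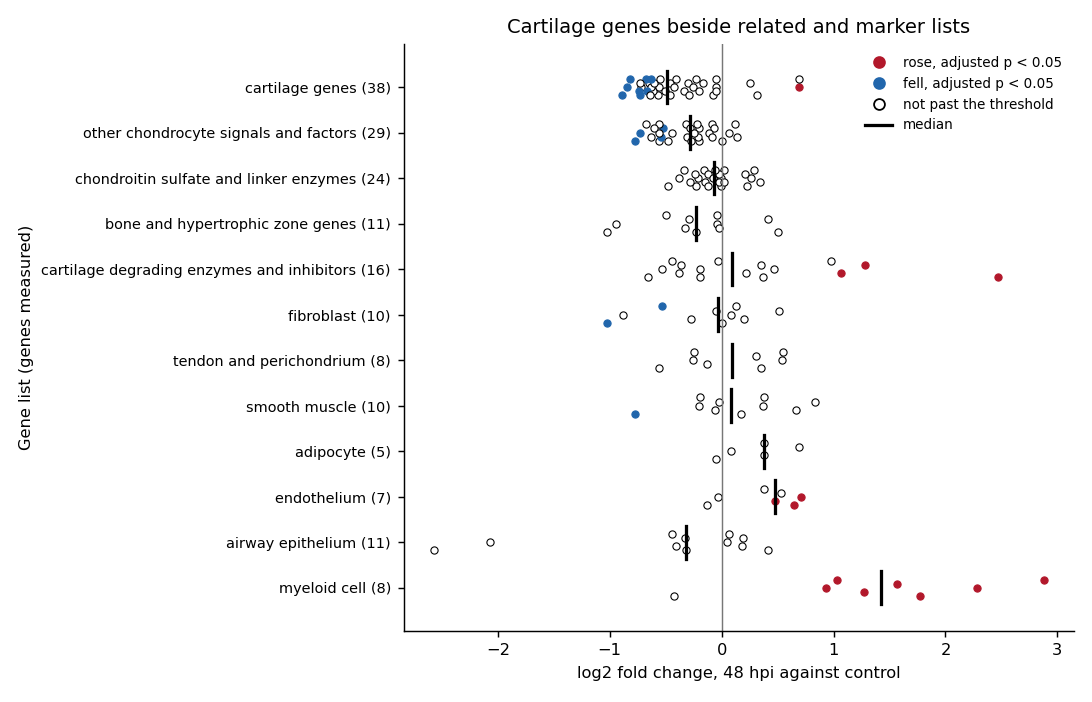
Log2 fold change (48 hpi against control) of each measured gene of the cartilage list, the 4 related lists and 7 cell type marker lists, with the median as a bar; filled points passed the limma threshold. The cartilage list has its median at -0.49 and the myeloid markers theirs at 1.42.

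Markers of other mesenchymal cells were read from the same fit. Of 10 fibroblast markers 2 fell, beside 1.24% of all genes. These were Dpt, at 69.2% of control, and Scara5, at 49.2%, which is lower than any cartilage gene. Unadjusted, 4 were lower and 0 higher at p under 0.05 in limma, beside 1690 and 2650 of all 18193 genes. The median log2 fold change of the fibroblast markers was -0.03. With the block 3 fell and 1 rose, where 4.64% of all genes fell and 8.77% rose. The mean level of the fibroblast markers was 11.54 to 11.82 in controls and 11.38 to 11.60 at 48 hpi. Of 10 smooth muscle markers 1 fell, beside 1.24% of all genes. This was Hhip, which is also counted above among the signals and factors of chondrocytes. The mean level of the smooth muscle markers was 10.56, 10.81 and 9.64 in controls 1, 2 and 3, against 10.41, 10.73 and 10.22 in injured samples 1, 2 and 3. It was thus lowest in control 3, and whether this bears on the cartilage drop in the pair numbered 3 was not tested. For 8 tendon and perichondrium markers the mean level was 8.06 to 8.24 against 8.15 to 8.26, and 0 passed in limma. Of these, 2 were higher at an unadjusted p under 0.05 in limma and 0 in the F test. With the block 2 of the 8 rose and 1 fell, beside 8.77% and 4.64% of all genes. Of 9 skeletal muscle markers and 4 thyroid markers 0 passed in limma, unadjusted or in the F test. Of 5 adipocyte markers 0 passed in limma, with 2 higher at an unadjusted p under 0.05 and 2 in the F test. With the block 2 of the 5 rose, beside 8.77% of all genes. The smooth muscle and tendon ranges of both groups overlapped, and the difference between any of these lists and the cartilage list was not tested.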

How the data were processed

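RNA of 3 control and 3 injured pools of tracheal mesenchyme was amplified and hybridized by the authors, 1 Affymetrix mouse array per sample. The deposited values are log2 expression values per probe set, normalized by the authors with RMA (background correction, quantile normalization and summary over probes), which hides changes shared by most genes and shrinks folds of dim genes. In the submitters' processing notes the tools are Affymetrix Expression Console 1.1, Partek 6.5 and RMA. For arrays, their number limits the precision.

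Of 45101 probe sets 64 array controls were left out. The platform annotation gave 1 symbol to 34945 of the other 45037, several to 932 and none to 9160. Of these, 34741 were matched by Entrez identifier to RefSeq names (GRCm38.p6). Limma 3.58.1 in R 4.3.3 (lmFit, eBayes, two-sided, group as the factor, checked on simulated data) was fitted to all 45037, with Benjamini-Hochberg adjustment and a threshold of 0.05. Residual degrees of freedom were 4, plus 3.21 from the shared spread, and 2 plus 4.80 with the block. Errors of fold changes are SEs. The dim bound came from 44 olfactory receptor probe sets.

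Same-numbered samples deviated from the group means together, with correlations of 0.62, 0.36 and 0.34, and every sample was most like its namesake. Control 3 with injured sample 2 and control 2 with injured sample 3 were positive too, at 0.18 and 0.11. As the deviations of 3 samples sum to 0, these correlations are not independent. The match within numbers 2 and 3 is thus weaker than that within number 1. The labels name no shared day, so this pairing is read from the values. Cartilage genes and lists were chosen with earlier results of these data known. Values per sample are given for genes past the threshold in either fit and for 13 measured genes picked for their role. Related lists give up to 2 rises and 2 falls by smallest adjusted p, or otherwise the 2 with the highest mean. The alternatives were the block, leaving out samples, a filter on dim probe sets, the mean over probe sets, adjustment over genes, cyclic loess, median centring, an intensity trend and an equal-variance F test.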

Additional observations from a re-analysis of the deposited data

How the results depend on the processing

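Most alternatives kept the median over the cartilage genes near its value of -0.49, with counts of calls moving more. With the replicate block 19 fell and 2 rose, against 8 and 1, and the block changed no other call among the cartilage genes. Of all genes 4.64% fell and 8.77% rose with the block, against 1.24% and 4.97%. The mean over a gene's probe sets gave 14 falls and 2 rises, beside 1.81% and 6.01% of all genes. Adjustment over genes gave 15 and 2, beside 2.31% and 6.81%. Without both samples numbered 1, 2 fell and 0 rose, beside 0.418% and 2.27% of all genes (22 lower and 4 higher at an unadjusted p under 0.05). In 30 every injured sample was below every control in that fit. This is easier to reach with 2 samples a group than with 3, and its share over all genes was not counted. The equal-variance F test called 0 and 0 after adjustment, beside 0.022% and 0.225% of all genes (17 lower and 2 higher unadjusted). Leaving out 1 sample gave 0 to 4 falls and 0 to 1 rises by limma (17 to 22 lower and 2 to 3 higher unadjusted). Of all genes 0.0934% to 0.539% fell and 1.92% to 3.56% rose in these fits. Unadjusted shares over all genes were not counted for these fits or for that without both samples numbered 1. The medians over the cartilage genes were -0.60 to -0.40. Filtering dim probe sets, cyclic loess, median centring and an intensity trend gave 7 to 11 falls and 1 rise each. Beside them 0.846% to 2.07% of all genes tested fell and 4.58% to 7.45% rose. The fall of Fgfr3 was lost under median centring and under the mean over probe sets. Cyclic loess and median centring moved the median of all probe sets by under 0.1. Of the genes given with values per sample, the direction turned only for Pth1r, at 0.04 without control 2 (-0.15 to 0.04 over the fits without 1 sample), and Ihh could not be tested with dim probe sets left out. Apart from the construction of each alternative, the cause of these moves was not tested. The 3 dim genes lie near background, so their fold changes are poorly fixed.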
